A study of Mus musculus with 15 samples.

Results

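The miR-132 and miR-212 family of the mouse comprises 4 mature miRNAs, mmu-miR-132-3p, mmu-miR-132-5p, mmu-miR-212-3p and mmu-miR-212-5p, which are the arms of the hairpins Mir132 and Mir212. They were taken by name, 4 of 1915 mature miRNAs in the table, in small RNA libraries of pancreatic acini from C57BL/6 mice aged 7 to 8 weeks. Acini are the clusters of exocrine cells that secrete digestive enzymes. The 15 libraries fall into 5 groups of 3. Control acini received no drug. Caerulein, a peptide agonist of the cholecystokinin receptor, was given at 100 nM, which the series design calls a pathological dose, or at 100 pM, which it calls physiological. The bile acid TLC-S was given at 250 uM or 62.5 uM. The treatment time is not given in the labels used here. They speak of pools of RNA from 3 acinar preparations without saying how pools and libraries correspond, so a p-value reflects only the scatter of libraries within a group, part or all of which may be technical.

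Transcription of the locus of both hairpins is known to be driven by CREB, a transcription factor that is phosphorylated when cytosolic calcium or cyclic AMP rises. In neurons the locus responds to synaptic activity, and in pancreatic islets it has been linked to insulin secretion. Caerulein and TLC-S are both known to raise cytosolic calcium in acinar cells. A miRNA arm that is loaded into Argonaute pairs with target mRNAs mainly through its seed, bases 2 to 8. The question taken here was whether either agent altered the level of any of the 4 arms.

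The mature sequences show which arms can share targets. They are printed 5′ to 3′ with the seed in capitals (RefSeq, GRCm38.p6, all 4 arms matched by name).
miR-132-3p: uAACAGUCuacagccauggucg
miR-212-3p: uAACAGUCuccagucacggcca
miR-132-5p: aACCGUGGcuuucgauuguuac
miR-212-5p: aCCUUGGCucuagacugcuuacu
The 3p arms have the same seed, AACAGUC, and no other mature miRNA in the RefSeq table carries it. They are identical over the first 9 bases and at 17 of 22 positions. Counted from the 5′ end of miR-132-3p, the substitutions toward miR-212-3p are A10C, C14U, U17C, U20C and G22A. The 5p arms each have a seed found in 1 mature miRNA of the table, their own. When aligned at base 1 they are identical at 9 of 22 positions, and with a shift of 1 base at 14 of 21.

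The hairpins are printed with both arms in capitals, the 5p arm first, to show where each mature sequence is cut out.
Mir212: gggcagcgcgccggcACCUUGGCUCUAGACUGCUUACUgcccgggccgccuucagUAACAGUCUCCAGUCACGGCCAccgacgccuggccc
Mir132: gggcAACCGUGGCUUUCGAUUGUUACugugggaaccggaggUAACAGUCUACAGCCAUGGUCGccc
Mir212 lies at chr11:75173388-75173478 and Mir132 at chr11:75173682-75173747, both on the plus strand of GRCm38. The gap between them is 203 bases. GENCODE M21 places both in the first intron of the noncoding transcript 1700016P03Rik, on the same strand, between its exon 1, which ends at 75172597, and its exon 2, which starts at 75173978. The protein-coding neighbours are Hic1, upstream on the minus strand, and Ovca2, which overlaps the 3′ part of the noncoding transcript on the minus strand.

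**Figure D1:**
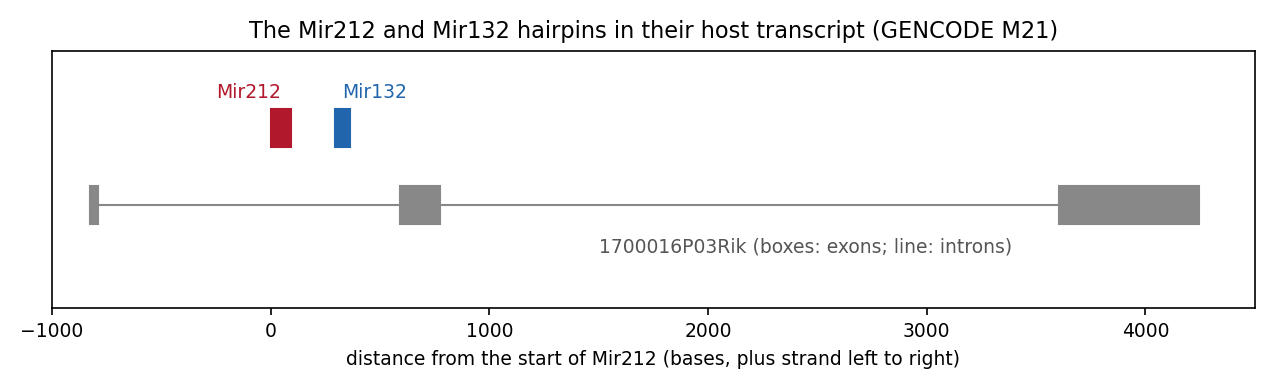
Map of the locus, with distance in bases from the start of Mir212 on the x axis. Coloured boxes are the hairpins and grey boxes the 3 exons of 1700016P03Rik. Both hairpins lie in its first intron, 203 bases apart.

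The median total was 1953104 counts. Both extremes belonged to caerulein 100 nM, 535473 in its replicate 2 and 5087728 in its replicate 3. Of 867 miRNAs with a count in any library, 351 passed the low-count filter of edgeR (filterByExpr) and were tested. Among the marker lists, all 4 acinar miRNAs, such as miR-148a-3p and miR-217-5p, were counted in all 15 libraries. Of 4 neuronal miRNAs, miR-9-5p had 1965 counts over all libraries and was counted in all 15, miR-9-3p had 56, miR-137-3p 10 and miR-124-3p 3. Of 4 leukocyte miRNAs, miR-150-5p had 1530 counts, miR-142a-5p 117, miR-223-3p 115 and miR-142a-3p 52. The endothelial arms of miR-126a averaged 5501 and 494 CPM (counts scaled to the library size after TMM, which sets each library against the others by its typical miRNA). In the islet and neuroendocrine list the most abundant member, miR-375-3p, averaged 99986 CPM. The most abundant epithelial, mesenchymal and erythrocyte members were miR-200a-3p at 41515, miR-143-3p at 11208 and miR-451a at 83.6 CPM. Which cells carried the 4 arms was not tested. The share of counts held by miR-148a-3p ranged from 17.6% to 50.5% and was highest in control replicate 3.

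mmu-miR-132-3p, the arm of Mir132 best known as a regulator of mRNAs, held most of the family's counts. It had 1337 counts over the 15 libraries, 78% of those of the 4 arms, with a lowest count of 24, a median of 71 and a highest of 268. Its level was 41.5 ± 10.5 CPM (SD, n = 15), which ranked it 182nd of the 351 tested miRNAs. mmu-miR-132-5p, the opposite arm, had 236 counts and a level of 8.08 ± 4.18 CPM. mmu-miR-212-3p had 100 counts and a level of 3.36 ± 2.28 CPM, with 1 library at 0. mmu-miR-212-5p had the fewest, 41 counts and 1.32 ± 1.11 CPM, with 4 libraries at 0. The order of these levels was thus miR-132-3p, miR-132-5p, miR-212-3p, miR-212-5p. The ranges of neighbours in this order overlapped, apart from miR-132-3p, whose lowest level, 23.4 CPM, exceeded the highest of miR-132-5p, 21 CPM. The 3 arms with more counts passed the filter, and miR-212-5p did not. The 4 arms together held between 0.00312% and 0.00828% of the counts of a library.

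In control acini miR-132-3p had 118, 122 and 111 counts, or 57.2, 45.6 and 53.0 CPM. With caerulein at 100 nM it had 71, 24 and 268 counts, or 34.8, 42.0 and 50.5 CPM. With caerulein at 100 pM the counts were 66, 43 and 34, or 37.9, 26.5 and 39.1 CPM. All 3 libraries at 100 pM lay below every control, and at 100 nM 2 of 3 did. TLC-S at 250 uM gave 40, 54 and 114 counts, or 31.5, 34.3 and 41.3 CPM, again all below every control. That separation depended on TMM. By library totals alone, its replicate 2 (54 of 1382248 counts) did not lie below control replicate 3 (111 of 2847458 counts). TLC-S at 62.5 uM gave 118, 120 and 34 counts, or 57.0, 48.2 and 23.4 CPM, so the groups overlapped and replicate 3 held the lowest level of all 15 libraries. Exact 95% Poisson intervals, which cover counting error only, reached from 47.3 to 68.5 CPM in control replicate 1 and from 16.2 to 32.7 CPM in replicate 3 of TLC-S 62.5 uM.

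By group mean, miR-132-3p was highest in control at 51.9 ± 5.86 CPM (SD, n = 3), followed by TLC-S 62.5 uM at 42.9 ± 17.4, caerulein 100 nM at 42.4 ± 7.86, TLC-S 250 uM at 35.7 ± 5.02 and caerulein 100 pM at 34.5 ± 6.95. No neighbours in this order differed by more than the larger of their SDs, which for the first step is the 17.4 of TLC-S 62.5 uM. Control differed from caerulein 100 nM, TLC-S 250 uM and caerulein 100 pM by more than either SD of the pair. Those differences did not pass the test given below. The 4 comparisons with control use the same 3 control libraries, so their common sign is not independent evidence.

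**Figure D2:**
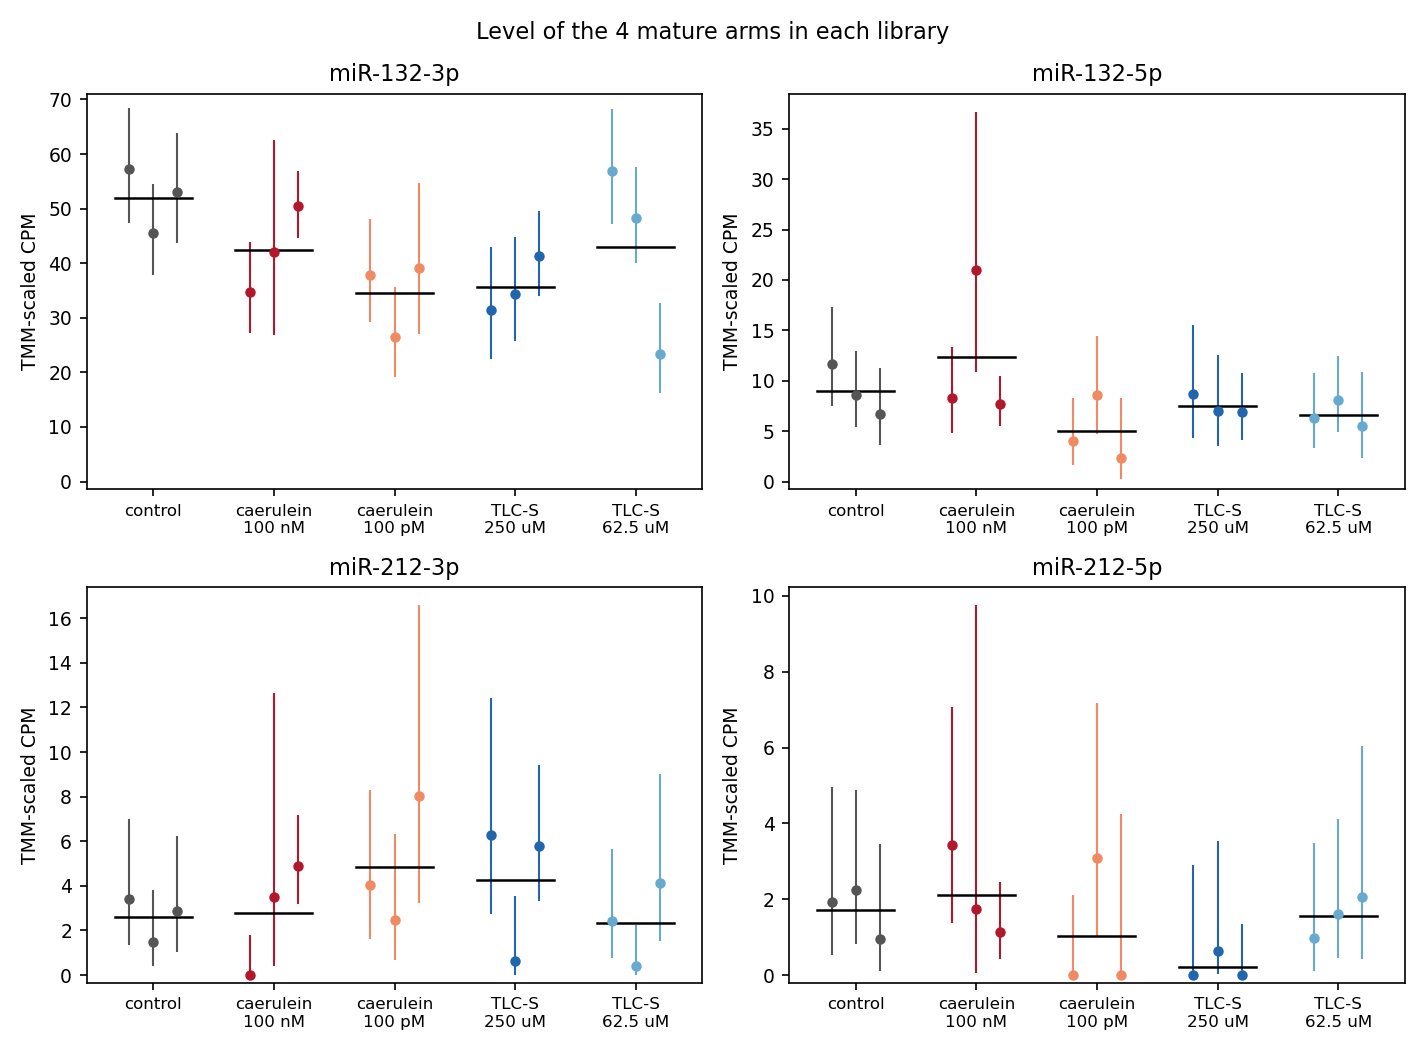
Level of each arm in TMM-scaled CPM (y axis) in the 3 libraries of each group (x axis). Points are libraries with exact 95% Poisson intervals and black lines are group means. miR-132-3p in caerulein 100 pM and TLC-S 250 uM lies below every control library, and miR-212-5p is at 0 in 4 libraries.

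None of these differences passed the test. For caerulein at 100 pM the log2 difference of miR-132-3p from control was -0.60 ± 0.33 (SE), and its 95% interval spanned -1.27 to 0.08 (adjusted p = 0.832, edgeR). For TLC-S at 250 uM it was -0.53 ± 0.32 (SE), spanning -1.20 to 0.13 (adjusted p = 0.999, edgeR). For caerulein at 100 nM it was -0.28, from -0.95 to 0.38, and for TLC-S at 62.5 uM -0.26, from -0.92 to 0.39. These intervals bound a rise of miR-132-3p more tightly than a fall. Their upper ends correspond to 1.06-fold at caerulein 100 pM, 1.10-fold at TLC-S 250 uM, 1.30-fold at caerulein 100 nM and 1.31-fold at TLC-S 62.5 uM, and their lower ends run from 0.414-fold to 0.528-fold of control. Lying below all 3 controls was not rare in the table: 4.84% of the tested miRNAs did so with caerulein at 100 pM and 3.42% with TLC-S at 250 uM.

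Beside this, both arms of endothelial miR-126a had negative log2 differences from control in all 4 comparisons, with medians of -0.81 at caerulein 100 nM, -0.33 at caerulein 100 pM, -0.28 at TLC-S 250 uM and -0.50 at TLC-S 62.5 uM. Their summed level was 6721 to 8514 CPM in control, 3401 to 6247 at caerulein 100 nM, 4851 to 8768 at caerulein 100 pM, 4454 to 7896 at TLC-S 250 uM and 4182 to 6674 at TLC-S 62.5 uM. Neither arm was called. No other marker list was negative for every tested member throughout. The endothelial list holds only 2 arms of the same hairpin, and the 4 comparisons share their controls. A common sign is therefore easier for it than for longer lists of separate miRNAs. How many of all tested miRNAs were negative in all 4 comparisons was not counted. In the same order of comparisons, the medians were -0.12, -0.05, -0.84 and -0.97 for 2 tested neuronal miRNAs. They were -0.08, 0.09, 0.08 and 0.13 for 5 mesenchymal miRNAs, and 0.02, 0.05, -0.10 and -0.41 for 4 acinar miRNAs. For 3 tested leukocyte miRNAs they were -0.44, 0.37, 0.15 and -0.12, and for 4 epithelial miRNAs -0.04, 0.01, -0.18 and 0.05. For 3 islet and neuroendocrine miRNAs they were 0.11, 0.23, 0.04 and 0.07, and for 3 erythrocyte miRNAs 0.32, -0.15, 0.06 and 0.21. The part of any cell type in the levels of miR-132-3p was not tested. In such bulk samples fewer cells of a type and less RNA per cell cannot be told apart.

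miR-132-5p, the arm paired with miR-132-3p in the hairpin, had 24, 23 and 14 counts in control, or 11.6, 8.60 and 6.69 CPM. With caerulein at 100 nM it had 17, 12 and 41 counts, or 8.33, 21 and 7.72 CPM. The value of 21 CPM, the highest of all libraries, came from the shallowest library and rests on 12 counts, with a Poisson interval from 10.8 to 36.7 CPM. Caerulein at 100 pM gave 7, 14 and 2 counts, or 4.02, 8.62 and 2.30 CPM, and 2 of 3 libraries lay below every control. TLC-S at 250 uM gave 11, 11 and 19 counts, or 8.66, 6.99 and 6.88 CPM. At 62.5 uM there were 13, 20 and 8 counts, or 6.28, 8.04 and 5.51 CPM. All 4 treated groups overlapped control.

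For miR-132-5p the log2 difference from control was 0.29 with an SE of 0.53 at caerulein 100 nM, and turned to -0.17 without replicate 2 of that group. It was -0.77 with an SE of 0.56 at caerulein 100 pM (adjusted p = 0.942, edgeR), where leaving out single libraries gave values from -1.46, without caerulein 100 pM replicate 2, to -0.48. The differences were -0.27 at TLC-S 250 uM and -0.42 at TLC-S 62.5 uM, both with an SE of 0.53. None passed.

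miR-212-3p, which shares the seed of miR-132-3p, had 7, 4 and 6 counts in control, or 3.39, 1.496 and 2.87 CPM. With caerulein at 100 nM it had 0, 2 and 26 counts, and the CPM of 0, 3.50 and 4.90 spread on both sides of control. The 0 stands at a depth where 3 counts would be 1.47 CPM. Caerulein at 100 pM gave 7, 4 and 7 counts, or 4.02, 2.46 and 8.04 CPM, and 2 of 3 libraries lay above every control. TLC-S at 250 uM gave 8, 1 and 16 counts, or 6.30, 0.636 and 5.79 CPM, 2 of 3 above every control and 1 below. TLC-S at 62.5 uM gave 5, 1 and 6 counts, or 2.41, 0.402 and 4.13 CPM.

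The log2 differences of miR-212-3p from control were 0.82 with an SE of 0.91 at caerulein 100 pM (adjusted p = 0.942, edgeR) and 0.75 with an SE of 0.87 at TLC-S 250 uM (adjusted p = 0.999, edgeR). They were 0.22 at caerulein 100 nM and -0.25 at TLC-S 62.5 uM. The intervals were wide. At caerulein 100 pM the interval ran from 0.482-fold to 6.42-fold of control. With these counts and this spread between libraries, a change of several fold could not be told from none. At caerulein 100 nM the sign rested on single libraries, with -1.43 without replicate 3 of that group, the deepest library, and -0.041 without control replicate 2, against 0.83 without replicate 1 of the treated group. At TLC-S 62.5 uM it turned to 0.33 without replicate 2 of that group and to 0.034 without control replicate 1, and was -0.94 without replicate 3 of that group.

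miR-212-5p, the other arm of Mir212, had 4, 6 and 2 counts in control, or 1.94, 2.24 and 0.956 CPM. Caerulein at 100 nM gave 7, 1 and 6 counts, or 3.43, 1.75 and 1.13 CPM, and TLC-S at 62.5 uM gave 2, 4 and 3 counts, or 0.966, 1.61 and 2.07 CPM. With caerulein at 100 pM, 2 libraries were at 0 and the other had 5 counts, or 3.08 CPM. With TLC-S at 250 uM there was 1 count in 3 libraries, in replicate 2, at 0.636 CPM. That group lay below every control and below every library of TLC-S 62.5 uM.

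Over the pooled counts, 1 with TLC-S at 250 uM against 12 in control, the ratio of pooled CPM was 0.102 with an exact 95% interval from 0.00238 to 0.686. That interval covers counting error only and leaves out the spread between libraries. In a fit without the low-count filter, over 867 miRNAs, edgeR put miR-212-5p at -2.82 on the log2 scale (SE 1.59, 95% interval -5.93 to 0.29, adjusted p = 1), a value that depends on how edgeR treats a group with so few counts. Without the filter 2.54% of the miRNAs with a count lay below all 3 controls in this comparison. Those at 0 in a control could not do so, which lowers this share. Among the 351 miRNAs that passed the filter the share was 3.42%. In that fit the other differences of miR-212-5p from control were 0.25 at caerulein 100 nM, -0.61 at caerulein 100 pM and -0.17 at TLC-S 62.5 uM, with SEs from 1.26 to 1.33.

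**Figure D3:**
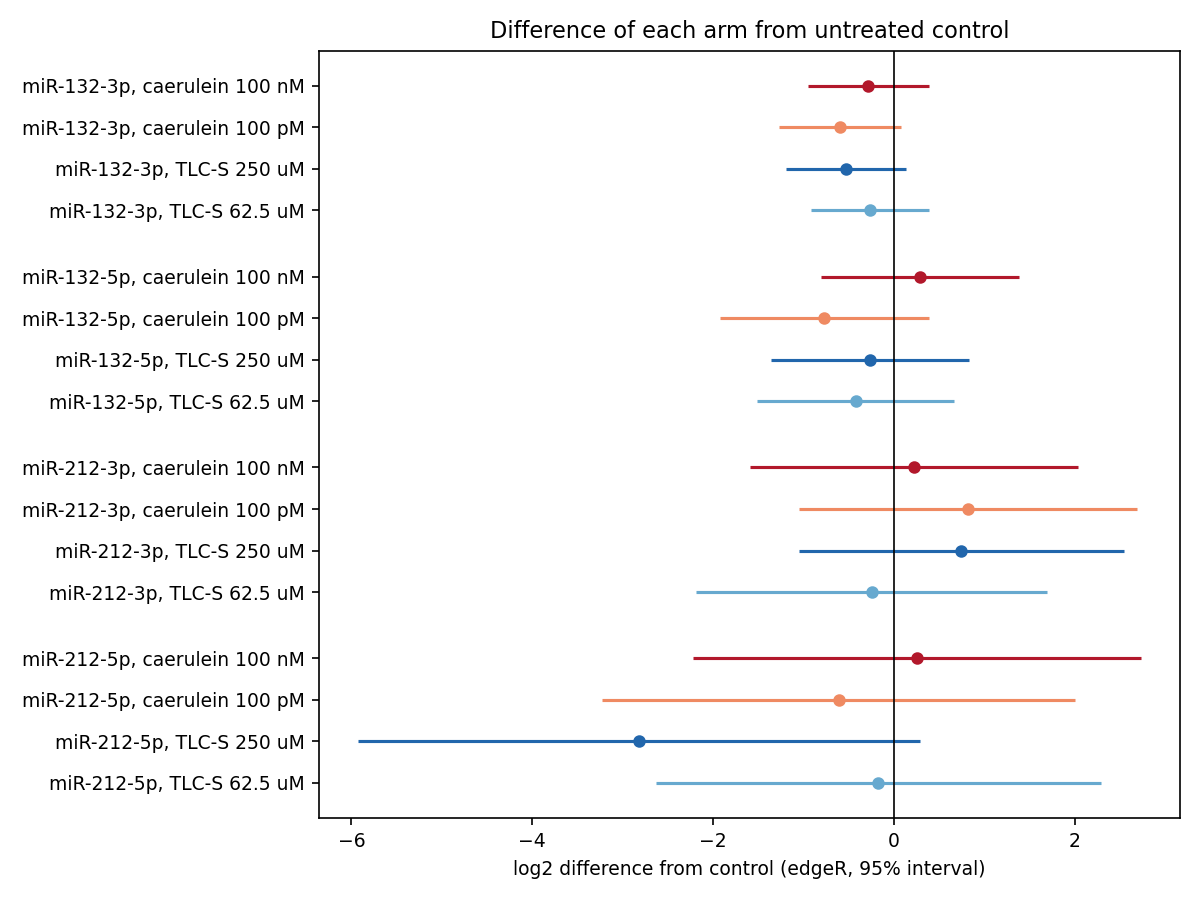
Log2 difference of each arm from control (x axis) for each arm and treatment (y axis), with the 95% interval of edgeR. Values of miR-212-5p come from the fit without the low-count filter. All 16 intervals include 0, and those of miR-132-3p are the narrowest.

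In every comparison with control, 0 of the 3 tested arms passed at an adjusted p under 0.05 in edgeR. At an unadjusted p under 0.05 the number of arms was also 0, as was the number called by DESeq2. At caerulein 100 pM that unadjusted count of 0 became 1 in 3 other settings of edgeR, through miR-132-3p with library totals or with the 2 groups alone, and through miR-132-5p without caerulein 100 pM replicate 2. Their adjusted p-values there were 0.852, 0.886 and 0.99977 (edgeR). Over all tested miRNAs edgeR called 0% at either caerulein dose, 0% at TLC-S 250 uM and 0.57% at TLC-S 62.5 uM. The shares with an unadjusted p under 0.05 were 3.42% at caerulein 100 nM, 6.84% at 100 pM, 1.14% at TLC-S 250 uM and 7.41% at 62.5 uM. The count of 0 arms is therefore near the background of each comparison. The median log2 difference of the 3 tested arms was 0.22, -0.60, -0.27 and -0.26 in the same order, against 0.03, 0.01, -0.03 and -0.01 over all 351 miRNAs. The F test over the 5 groups called 0.855% of miRNAs, with 7.41% at an unadjusted p under 0.05, and none of the arms, with adjusted p = 0.967 for miR-132-3p, 0.980 for miR-132-5p and 0.980 for miR-212-3p (edgeR).

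The doses of each agent were also compared directly. Between caerulein at 100 nM and at 100 pM, miR-132-5p had the largest difference of the tested arms, 1.06 ± 0.58 (SE) on the log2 scale, higher at 100 nM, its interval spanning -0.13 to 2.25 (adjusted p = 0.986, edgeR). It averaged 12.3 ± 7.49 CPM at 100 nM and 4.98 ± 3.27 CPM at 100 pM (SD, n = 3), with 1 of 3 libraries at 100 nM above every library at 100 pM. Without caerulein 100 pM replicate 2 the difference was 1.76, and without caerulein 100 nM replicate 2 it was 0.62. miR-132-3p differed by 0.32 with an SE of 0.33 and miR-212-3p by -0.59 with an SE of 0.90. Without caerulein 100 nM replicate 1, the library at 0, the difference of miR-212-3p turned to 0.057, and without replicate 3 of that group it was -2.22. The number of arms that passed was 0 in edgeR and in DESeq2, and 0 at an unadjusted p under 0.05. That last count is not stable for miR-132-5p, whose unadjusted p in edgeR was 0.0162 without caerulein 100 pM replicate 2, 0.0454 without caerulein 100 nM replicate 3, 0.0324 with library totals and 0.0488 with the replicate block. The adjusted p in these settings ran from 0.895 to 0.989. edgeR called 0% of all miRNAs here, and 1.71% were under an unadjusted p of 0.05.

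Between TLC-S at 250 uM and at 62.5 uM, miR-132-3p differed by -0.27 with an SE of 0.32, miR-132-5p by 0.16 with an SE of 0.55 and miR-212-3p by 0.99 with an SE of 0.92. The difference of miR-132-3p was 0.00504 without TLC-S 62.5 uM replicate 1. That of miR-212-3p was 1.69 without TLC-S 62.5 uM replicate 3 and 0.43 without replicate 2 of that group. Again 0 arms passed in edgeR or DESeq2, and 0 had an unadjusted p under 0.05. Of all tested miRNAs 1.14% were called by edgeR and 8.83% were under an unadjusted p of 0.05. miR-212-5p, with 1 count at 250 uM and 9 at 62.5 uM, had a ratio of pooled CPM of 0.119 with a counting interval from 0.00272 to 0.860, and its log2 difference without the filter was -2.64 (SE 1.61). Of the miRNAs with a count, 3.23% lay below all 3 libraries of the other dose in this way. Those at 0 in a library of the other dose could not do so, which lowers this share.

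Ratios within a library do not depend on scaling between libraries. The 5p arm made up 15% of the pooled counts of Mir132 (236 of 5p against 1337 of 3p). By group the pooled share of the 5p arm was 14.8% in control, 16.2% at caerulein 100 nM, 13.9% at caerulein 100 pM, 16.5% at TLC-S 250 uM and 13.1% at TLC-S 62.5 uM. By library it ranged from 5.56%, on 2 counts of the 5p arm in replicate 3 of caerulein 100 pM, to 33.3% in replicate 2 of caerulein 100 nM. The 3p arm therefore had more counts in all 15 libraries. Whether different arms were captured with equal efficiency was not tested. The log2 ratio of 5p to 3p, with 0.5 added to each count, did not differ between the 5 groups beyond the spread of libraries (exact permutation p = 0.582 over all 1401400 divisions of 15 libraries into 5 groups of 3).

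For Mir212 the 5p arm made up 29.1% of pooled counts, and neither arm led in every library. Replicate 1 of caerulein 100 nM had 7 counts of the 5p arm and 0 of the 3p arm, and replicate 3 of TLC-S 250 uM had 0 and 16. The pooled share of the 5p arm was 41.4% in control, 33.3% at caerulein 100 nM, 21.7% at caerulein 100 pM, 3.85% at TLC-S 250 uM and 42.9% at TLC-S 62.5 uM. The log2 ratio of the arms gave an exact permutation p = 0.331 over the 5 groups.

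The 3p arms with the common seed were set against each other in the same way. miR-212-3p made up 6.96% of the counts of both 3p arms, so most counts with the AACAGUC seed were of miR-132-3p. In control the share of miR-212-3p was 5.60%, 3.17% and 5.13%, and with caerulein at 100 pM it was 9.59%, 8.51% and 17.1%, above every control. The log2 ratio of miR-212-3p to miR-132-3p was higher by 1.41 at 100 pM, at a mean of -2.87 ± 0.59 against -4.28 ± 0.42 (SD, n = 3; exact two-sided permutation p = 0.1, the smallest that 3 against 3 allows). With TLC-S at 250 uM the ratio was higher by 0.87 (exact p = 0.4), with caerulein at 100 nM it differed by -0.31 (exact p = 1) and with TLC-S at 62.5 uM by -0.11 (exact p = 1). Over the 5 groups the exact permutation p was 0.620. Adjusted by Benjamini-Hochberg over the 3 ratios, the 3 exact p-values all became 0.620, and the 12 comparisons of a treated group with control had adjusted values of 0.8 or 1.

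The split between these 3p arms also depends on the 5 bases at which they differ. All deposited values of the 4 arms per precursor were whole numbers, so no read was divided between the hairpins. Whether a miR-132-3p read with sequencing errors could have been assigned to Mir212 was not tested.

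**Figure D4:**
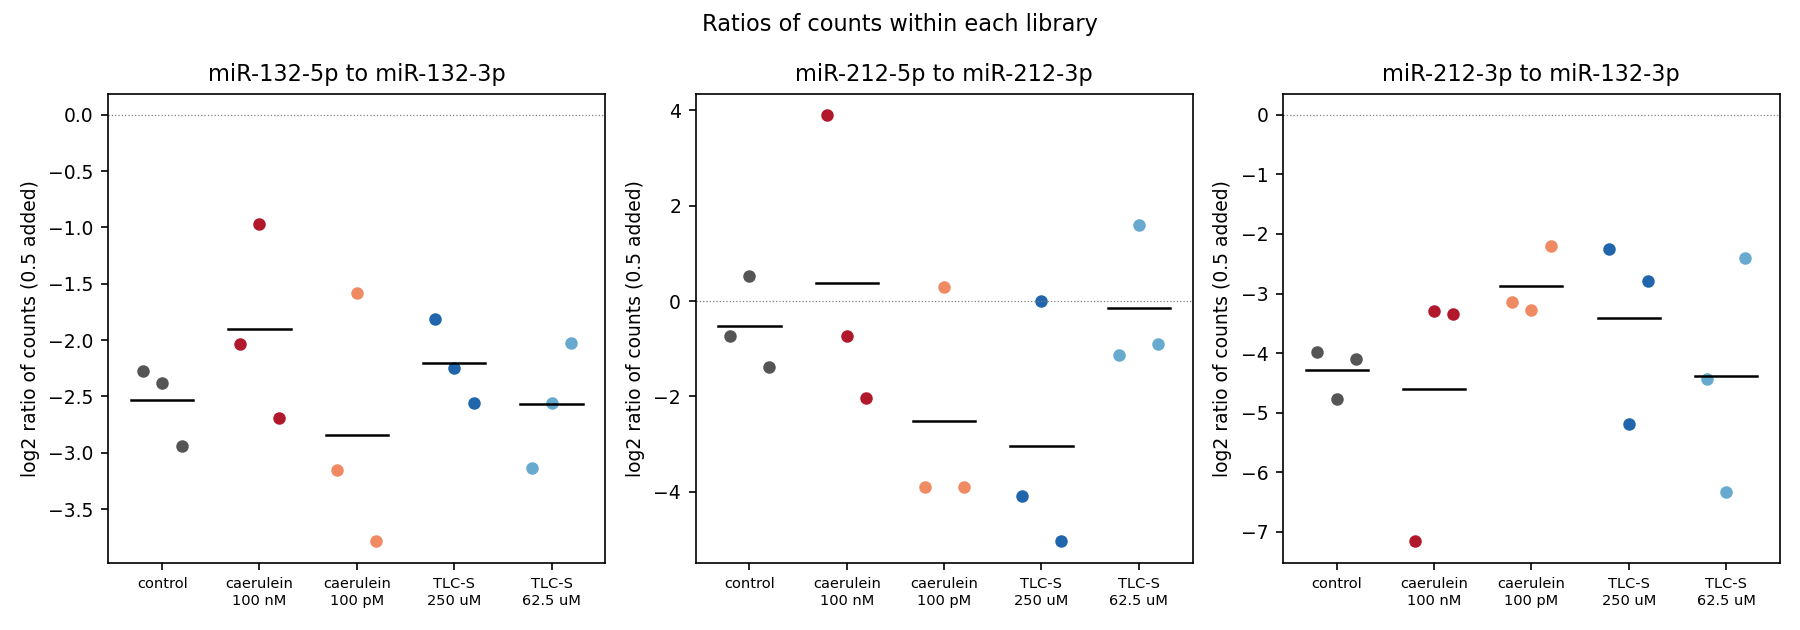
Log2 ratio of 2 counts within each library (y axis, 0.5 added to each count) by group (x axis), for the arms of Mir132, the arms of Mir212 and the 3p arms of both. Points are libraries and black lines are group means. The ratio of miR-132-5p to miR-132-3p is below 0 in all 15 libraries, and the ratio of miR-212-3p to miR-132-3p at caerulein 100 pM lies above all 3 controls.

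Other miRNAs linked to neuronal activity, light or CREB formed a list of 14, of which 11 were tested and 0 passed in any of the 6 comparisons with edgeR or with DESeq2. At an unadjusted p under 0.05 in edgeR there were 2 at caerulein 100 pM, miR-182-5p and miR-184-3p, 1 at TLC-S 62.5 uM and between the TLC-S doses, miR-184-3p, 1 between the caerulein doses, miR-138-5p, and 0 in the other two comparisons. Over all tested miRNAs the shares at that p were 6.84% at caerulein 100 pM, 7.41% at TLC-S 62.5 uM, 8.83% between the TLC-S doses and 1.71% between the caerulein doses. In the F test over the 5 groups, 3 of the 11 (miR-184-3p, miR-182-5p and miR-138-5p) were under an unadjusted p of 0.05, against 7.41% of all tested miRNAs, and their adjusted p-values were 0.548, 0.671 and 0.671 (edgeR). The list holds miR-219a-5p, a CREB target of the circadian clock, miR-134-5p, miR-379-5p and miR-329-3p of the imprinted Dlk1-Dio3 cluster, the miR-183/96/182 cluster, and others expressed in neurons. In the comparisons with control 7 of 11 were positive at caerulein 100 nM, 5 at caerulein 100 pM, 6 at TLC-S 250 uM and 4 at TLC-S 62.5 uM. The medians were 0.09, -0.17, 0.06 and -0.07, against 0.03, 0.01, -0.03 and -0.01 over all tested miRNAs.

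miR-219a-5p, at 12.1 ± 4.66 CPM (SD, n = 15), had log2 differences of 0.36, -0.32, 0.09 and 0.16 with SEs from 0.49 to 0.52. The smallest unadjusted p-values belonged to miR-184-3p at TLC-S 62.5 uM, 319 against 165 CPM (log2 difference 0.95, SE 0.31, adjusted p = 0.229, edgeR), and to miR-182-5p at caerulein 100 pM, 4989 against 2979 CPM (0.74, SE 0.27, adjusted p = 0.722, edgeR). miR-134-5p, a brain miRNA, differed from control by -0.17 to 0.49, miR-138-5p by -0.50 to 0.43 and miR-128-3p by -0.60 to -0.07. miR-9-5p, at 63.1 ± 13.998 CPM, differed by -0.47 to 0.10. miR-9-3p, at 2.21 ± 2.30 CPM, differed by -1.55 to -0.19 with SEs of at least 1.11. miR-379-5p differed by -0.08 to 0.49, miR-183-5p by -0.30 to 0.28 and miR-96-5p by -0.38 to -0.15.

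The miRNAs whose levels followed miR-132-3p most closely over the 15 libraries were miR-107-3p (Pearson r = 0.78, Spearman rho = 0.75), miR-28a-5p (r = 0.74, rho = 0.64) and miR-103-3p (r = 0.72, rho = 0.56), on log2 CPM with a prior count of 2. They were picked as the highest among the tested miRNAs, so the values are a description and carry no p. Without the libraries farthest from the median of miR-132-3p, replicate 3 of TLC-S 62.5 uM and replicate 2 of caerulein 100 pM, r was 0.58, 0.56 and 0.49. The other arm of the same hairpin, miR-132-5p, ranked 139th with r = 0.16, and miR-212-3p had r = -0.04. At their counts a weak correlation is no finding.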

How the data were processed

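Small RNA of 15 libraries from C57BL/6 mouse pancreatic acini was analysed. The authors deposited estimated counts (expected counts) per mature miRNA as whole numbers, and a second table of estimated counts per precursor. cutadapt, Bowtie, GRCm38 and mm10 are named, without versions, per the submitters' processing notes. Which program counted the reads is not given in the sources used here. In all 15 libraries the count of each of the 4 arms equalled the value of its 1 precursor, with no fractional value (tolerance 1e-06).

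The counts were used as deposited in edgeR 4.0.16 (R 4.3.3): TMM scaling, filterByExpr (minimum count 10, minimum total 15), and glmQLFit and glmQLFTest with 5 group means and 10 residual degrees of freedom. Benjamini-Hochberg adjustment covered all 351 tested miRNAs, with a threshold of 0.05. Levels are TMM-scaled CPM. Intervals of single counts are exact 95% Poisson intervals and cover counting error only. Ratios of 2 counts within a library, with 0.5 added to each, were compared by exact permutation tests over libraries. Scripts were tested on simulated data. The chi-square per degree of freedom between replicates of a group was 64.1 or more. No library therefore repeats another of its group within sampling noise. Pairs of libraries from different groups were not compared in this way. Whether libraries share a preparation is not known.

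Alternatives were other scalings, no filter or a mean of at least 10 CPM, DESeq2 1.42.0, a replicate block, the 2 groups alone and leaving out single libraries. The members and miRNA lists were chosen with earlier results of these data known. The rule named the 4 arms, the tested miRNAs of a list of other activity- or CREB-linked miRNAs, any other miRNA with a member's seed, and the 3 tested miRNAs whose levels followed miR-132-3p most closely. Sequences came from RefSeq (GRCm38.p6) and annotation from GENCODE M21.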

Additional observations from a re-analysis of the deposited data

How the results depend on the processing

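No setting called any of the 4 arms, in 84 recounts over the 6 pairwise comparisons. Of 298 recomputed values of the arms, 290 stayed on the same side of 0 and of the threshold. These 298 include 22, 21 and 21 adjusted p-values of the F test for miR-132-3p, miR-132-5p and miR-212-3p, which cannot change sign. All 8 reversed values were log2 differences. The smallest adjusted p of any arm in any setting was 0.569. An unadjusted p under 0.05 appeared in 4 of 13 settings for miR-132-5p between the caerulein doses, and at caerulein 100 pM against control in 2 of 14 for miR-132-3p and 1 of 13 for miR-132-5p. miR-212-5p did not pass the filter in any other setting, so its differences come from 1 fit, and the filter of at least 10 CPM kept only miR-132-3p. miR-212-3p was also left out by the filter when the 2 groups were fitted alone. The reversed values were all of differences that had not passed. For caerulein at 100 nM against control, leaving out single libraries gave -0.17 to 0.58 for miR-132-5p and -1.43 to 0.83 for miR-212-3p, and the replicate block gave -0.23 for miR-212-3p. Leaving out single libraries gave -0.94 to 0.33 for miR-212-3p at TLC-S 62.5 uM against control, -2.22 to 0.057 for miR-212-3p between the caerulein doses and -0.48 to 0.00504 for miR-132-3p between the TLC-S doses. Library totals in place of TMM shifted the median of all miRNAs by -0.24 for caerulein at 100 pM against control, by 0.29 between the caerulein doses and by 0.10 for TLC-S at 62.5 uM, and the difference of miR-132-3p at 100 pM became -0.82; relative to that shift it was close to its value with TMM. The numbers of miRNAs called over the whole table moved more, and the cause was not tested. For caerulein at 100 nM, 0 became 1 with DESeq2. For TLC-S at 62.5 uM, 2 became 1 with library totals, 5 without the filter, 4 with DESeq2, 5 with the replicate block, 0 with the 2 groups alone, and 1 to 2 without single libraries. Between the TLC-S doses, 4 became 2 with RLE or upper quartile scaling, 1 at a mean of at least 10 CPM, and 1 to 2 without single libraries. In the F test, 3 became 10 without the filter, 1 at a mean of at least 10 CPM, 7 with DESeq2, 6 with the replicate block, and 1 to 4 without single libraries.

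The sample names form 3 series of 5, 1 library of each group in each, and the replicate block used these series. Of 30 pairs of libraries in the same series, 15 had deviations from their group means that correlated above 0.1 (median 0.099, from -0.12 to 0.40), against a median of -0.034 for 60 pairs from different series, and 12 of 15 libraries correlated best with their own series. Subtracting group means makes the medians dependent. A shared source was not tested and the labels name none, so the block was kept as an alternative. With the block, the differences of miR-132-3p from control were -0.28, -0.60, -0.52 and -0.26 for caerulein (100 nM, then 100 pM) and TLC-S (250 uM, then 62.5 uM), and no arm was called. The exact p of the 3 ratios over the 5 groups ran from 0.106 to 0.820 without single libraries.

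Depth limits the miR-212 arms most. At their median counts of 6 and 2, counting error alone is 40.8% and 70.7% of the value, against 11.9% for miR-132-3p.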
